A study of Mus musculus with 9 samples.

Results

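The 10 genes Nt5e, Slc28a2, Slc28a1, Slc29a1, Adora2b, Ada, Adk, Pnp, Gda and Xdh, which handle adenosine and other purines, were followed in mouse jejunum. They were taken by symbol from a table of 31685 genes, and all 10 were among the 13056 genes tested. They were chosen by symbol and role, and selected on earlier results for their FPKM in these same mice, so their own levels and differences are given as a description, with no p-value. The gene lists read beside them were also chosen with earlier results of these data known, so adjusted p-values of list genes are likewise a description. The jejunum came from wild-type male C57BL/6J mice aged 6 to 8 weeks, 3 in each of 3 groups, all labelled as 1 batch. The control group was untreated, the TAI group received a single dose of 12 Gy of total abdominal irradiation by X-ray followed by PBS, and the TAI/IVIg group received the same irradiation followed by 500 mg/kg of intravenous immunoglobulin (IVIg, pooled human antibody) within 1 hour, repeated every 3 days. Tissue was taken on day 3 after irradiation and its mRNA was sequenced. Levels are FPKM, that is reads scaled to gene length and library total, and the libraries held from 16284386 to 18244739 reads. The differences below are on the log2(FPKM + 1) scale, which understates the change of low genes.

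Adenosine is made outside cells from released ATP and AMP. The last step is carried out by the 5'-nucleotidase CD73, the product of Nt5e. Adenosine then acts on receptors such as the one encoded by Adora2b, which couples to cAMP, or enters cells through the sodium-driven carriers Slc28a1 and Slc28a2 and the equilibrative carrier Slc29a1. Inside the cell, adenosine kinase (Adk) returns it to AMP, whereas adenosine deaminase (Ada) turns it into inosine. Purine nucleoside phosphorylase (Pnp) splits inosine to hypoxanthine, guanine deaminase (Gda) makes xanthine from guanine, and xanthine dehydrogenase (Xdh) oxidises both bases to urate. In mouse small intestine, Nt5e, Slc28a2 and Ada are known as genes of the villus tip, the zone of the oldest enterocytes. The present libraries are bulk tissue with no position, so a level here cannot be assigned to the tip, and fewer cells of a type cannot be told apart from less RNA per cell.

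On build GRCm38 with GENCODE M21, Nt5e (ENSMUSG00000032420) lies at chr9:88327197-88372092 and Ada (ENSMUSG00000017697) at chr2:163726584-163750239. Slc28a2 (ENSMUSG00000027219) lies at chr2:122426477-122461137, Slc28a1 (ENSMUSG00000025726) at chr7:81114799-81170416 and Slc29a1 (ENSMUSG00000023942) at chr17:45585200-45599606. Adora2b (ENSMUSG00000018500) lies at chr11:62248984-62266453 and Adk (ENSMUSG00000039197) at chr14:21052574-21448569. Pnp (ENSMUSG00000115338) lies at chr14:50931082-50965237, Gda (ENSMUSG00000058624) at chr19:21391307-21473445 and Xdh (ENSMUSG00000024066) at chr17:73883895-73950196. All 10 are protein-coding. Other annotated genes overlap Slc28a2 (Gm14086), Slc28a1 (Ndufs6b), Xdh (CT025731.2), Adk (Gm26372), Slc29a1 (Gm17080) and Pnp (Pnp2, Gm49342 and Gm38316), so some reads of these members may be assigned uncertainly.

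The sequence before the transcription start is shown for Ada and Slc28a2, whose levels moved together over the 9 mice, and for Adora2b and Slc28a1, the members with the largest positive differences between TAI/IVIg and TAI. The windows are the 250 bases before the RefSeq start on build GRCm38.p6, read 5′ to 3′ on the strand of the gene. The promoter table held 9 of the 10 members. The Ada window is on the minus strand at chr2:163750240-163750489, Slc28a2 on the plus strand at chr2:122426185-122426434, Slc28a1 on the plus strand at chr7:81114549-81114798 and Adora2b on the plus strand at chr11:62248734-62248983. Capitals mark matches, on either strand, to 7 motifs chosen after the sequences were seen, which may overlap each other. The general promoter element called the GC box was searched as GGGCGG, and the site of GATA transcription factors as AGATAA. For the intestinal regulators CDX and HNF4 the letters were TTTATG and CAAAGNCCA respectively. The stimulus-linked elements were the one bound by AP-1, searched as TGANTCA, the cAMP response element, whose letters are TGACGTCA, and finally the hypoxia response element, whose core is ACGTG.
Ada: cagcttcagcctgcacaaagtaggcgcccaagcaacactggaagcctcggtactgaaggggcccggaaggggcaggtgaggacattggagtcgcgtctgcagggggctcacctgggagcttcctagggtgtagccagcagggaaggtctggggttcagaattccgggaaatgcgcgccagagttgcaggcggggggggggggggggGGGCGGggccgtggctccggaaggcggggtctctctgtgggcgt
Slc28a2: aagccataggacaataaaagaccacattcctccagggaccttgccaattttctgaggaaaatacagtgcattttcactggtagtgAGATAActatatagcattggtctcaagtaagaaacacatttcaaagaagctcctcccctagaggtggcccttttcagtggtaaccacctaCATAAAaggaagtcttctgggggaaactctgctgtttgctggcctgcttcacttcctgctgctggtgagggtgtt
Slc28a1: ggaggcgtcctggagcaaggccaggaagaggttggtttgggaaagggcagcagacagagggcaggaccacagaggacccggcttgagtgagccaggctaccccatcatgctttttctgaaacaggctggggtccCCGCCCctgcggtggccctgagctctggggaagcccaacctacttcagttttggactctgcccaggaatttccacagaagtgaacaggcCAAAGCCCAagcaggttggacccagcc
Adora2b: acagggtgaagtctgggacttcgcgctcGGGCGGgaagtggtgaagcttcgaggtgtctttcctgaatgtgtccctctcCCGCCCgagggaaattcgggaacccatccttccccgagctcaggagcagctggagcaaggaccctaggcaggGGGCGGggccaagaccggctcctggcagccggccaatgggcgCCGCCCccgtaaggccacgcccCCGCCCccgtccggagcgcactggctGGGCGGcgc

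Although Ada and Slc28a2 moved together, their windows shared no match. Ada held 1 GC box in a window of 67.2% G and C, and Slc28a2 held 1 GATA and 1 CDX match in a window of 45.2%, against a median of 52.4% over the 32851 windows in the table. Adora2b held 6 GC boxes, and Slc28a1 held 1 GC box and 1 HNF4 match, 27 to 19 bases before the start. A GC box was present in 32.7% of all windows, the GATA motif in 9.99%, the CDX motif in 10.8% and the HNF4 motif in 1.70%. None of the 4 windows held the letters of the cAMP response element (1.55% of all windows), the AP-1 motif (6.75%) or the hypoxia response element (16.6%). These matches are letters in a window and were not tested as binding sites.

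In control jejunum, the breakdown enzymes were the most abundant members. Gda had a mean of 168 FPKM and Xdh of 115 FPKM, with overlapping ranges, and both lay apart from Ada at 40.7 FPKM. Slc28a2 and Pnp followed at 17.8 and 17.1 FPKM, and Adk, Slc29a1, Adora2b and Nt5e lay between 6.24 and 1.84 FPKM. After TAI the order was different, with Ada first at 1491 FPKM and Slc28a2 second at 556 FPKM, and the range of Ada lay above that of Slc28a2. Ada also had the highest mean in the TAI/IVIg mice, at 1402 FPKM, where its range overlapped that of Slc28a2.

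**Figure D1:**
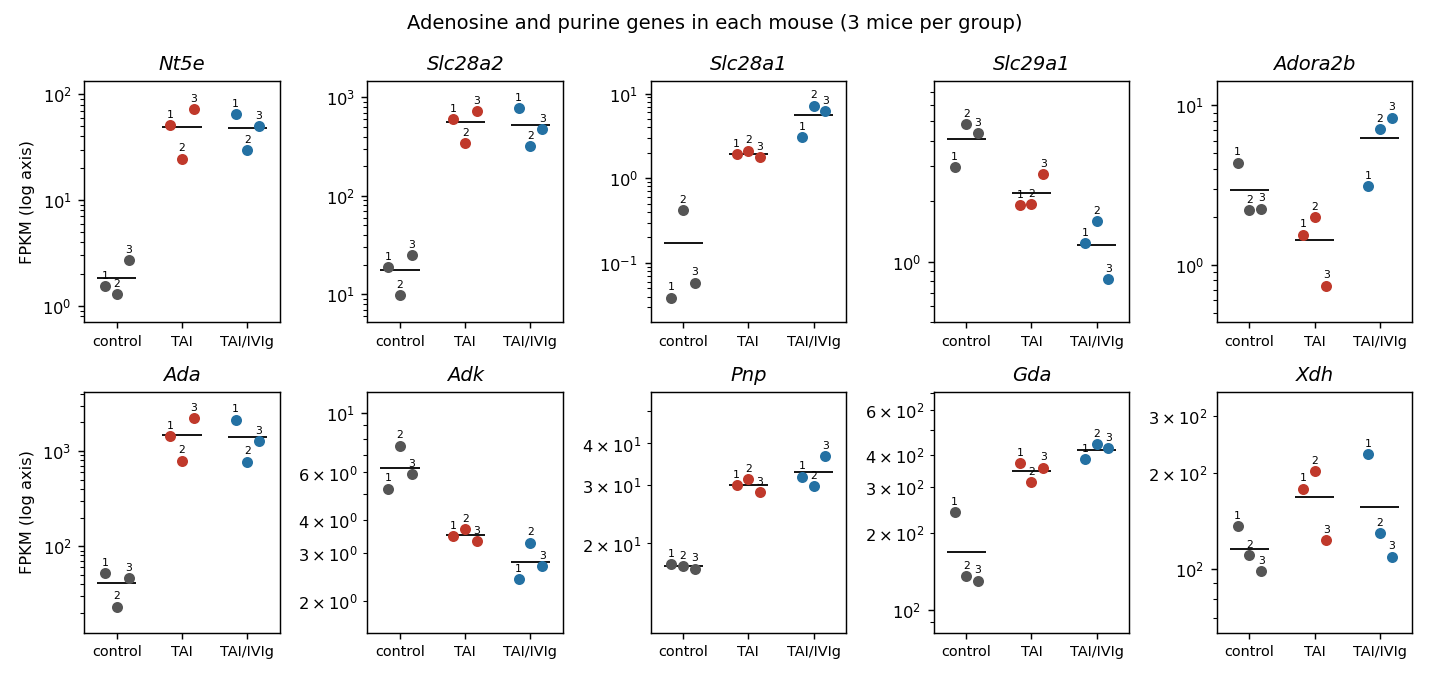
FPKM of the 10 members in each mouse on log axes, with a point and mouse number for each of 3 mice per group and a line at the group mean. Nt5e, Slc28a2 and Ada were far higher in both irradiated groups, with mouse 2 lowest of each group. The group means of Adora2b and Slc28a1 were highest in TAI/IVIg, with overlap with control for Adora2b.

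Nt5e, the gene of the enzyme that makes adenosine, was much higher after irradiation. The control mice had 1.54, 1.29 and 2.69 FPKM, the TAI mice 51.0, 24.7 and 72.7, and the TAI/IVIg mice 65.0, 29.8 and 49.9. Every irradiated mouse was above every control mouse, and the irradiated groups overlapped. Between TAI and control the means differed 26.9-fold and the log2 difference was 4.05 (standard error 0.41), the 10th highest of 13056 genes. Between TAI/IVIg and TAI it was 0.02 (95% confidence interval -0.90 to 0.94).

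Of the other genes that act on nucleotides outside the cell, 7 of 9 listed were tested. After TAI 2 rose and 0 fell, where 8.81% and 26.1% of all genes did so, and with library medians set equal 3 rose and 0 fell. Enpp3, an ectoenzyme that cleaves nucleotides at the cell surface, had 9.19, 4.27 and 4.08 FPKM in the control mice, 173, 133 and 144 in the TAI mice and 205, 180 and 268 in the TAI/IVIg mice. Its groups of irradiated mice lay apart from the controls, with a log2 difference of 4.53 (standard error 0.27, limma adjusted p = 9.19e-05). Alpi, the intestinal alkaline phosphatase, rose from 154 (median) in the controls to 480 (median) in the TAI mice, a log2 difference of 1.47 (standard error 0.23, limma adjusted p = 0.00264). Against control, 4 of the 7 rose and 0 fell in TAI/IVIg, where 9.06% and 37.4% of all genes did so. With medians set equal the counts were also 4 and 0. The genes added were Entpd8 and Entpd2, which remove phosphates from ATP and ADP. Their log2 differences were 0.77 (limma adjusted p = 0.0147) and 0.47 (limma adjusted p = 0.0182).

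Among the carrier members, the sodium-driven Slc28a2 and Slc28a1 were higher after TAI and the equilibrative Slc29a1 was lower. Slc28a2, which prefers purine nucleosides, had 18.9, 9.76 and 24.8 FPKM in the control mice, 603, 342 and 724 in the TAI mice and 783, 320 and 472 in the TAI/IVIg mice. The irradiated groups overlapped each other and lay far above the controls. The means of TAI and control differed 31.2-fold, with a log2 difference of 4.91 (standard error 0.43), the 5th highest of all genes tested, and TAI/IVIg differed from TAI by -0.11 (95% confidence interval -1.08 to 0.86).

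Slc28a1, which prefers pyrimidine nucleosides, was close to undetected in control jejunum, with 0.0390, 0.422 and 0.0587 FPKM from 2, 22 and 3 reads. It was at 1.92, 2.12 and 1.78 FPKM in the TAI mice and at 3.07, 7.22 and 6.27 in the TAI/IVIg mice. The 3 groups did not overlap, with control lowest and TAI/IVIg highest. The log2 difference was 1.34 (standard error 0.26) between TAI and control and 1.09 (95% confidence interval 0.50 to 1.67) between TAI/IVIg and TAI. With so few control reads the first of these depends on the pseudocount, and limma voom on the recovered reads gave 4.10.

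Slc29a1 went the other way, at 2.96, 4.84 and 4.38 FPKM in the control mice, 1.91, 1.93 and 2.72 in the TAI mice and 1.23, 1.59 and 0.818 in the TAI/IVIg mice. Its groups did not overlap either, and the lowest of them was TAI/IVIg. The log2 difference was -0.66 (standard error 0.20) between TAI and control and -0.53 (95% confidence interval -0.99 to -0.07) between TAI/IVIg and TAI, and with library medians set equal these were -0.37 and -0.33. The level of Slc28a2 over that of Slc29a1 in the same mouse was 2.02 to 6.39 in control, 177 to 316 in TAI and 202 to 634 in TAI/IVIg. Of 4 other nucleoside carriers that were listed, 2 were tested and 0 were called after TAI, where 34.9% of all genes were. Slc28a3, a further sodium-driven carrier, had 2.75, 3.48 and 3.33 FPKM in control, 1.52, 2.27 and 0.680 in TAI and 0.647, 1.59 and 2.31 in TAI/IVIg. Every TAI mouse was thus below every control mouse, unlike Slc28a2 and Slc28a1, with a log2 difference of -0.80 (standard error 0.30, limma adjusted p = 0.0658). Slc29a3, a carrier of intracellular membranes, fell in TAI/IVIg against control (log2 difference -0.64, limma adjusted p = 0.0336), where 37.4% of all genes fell. With library medians set equal Slc29a3 was not called. An antisense gene, Gm17080, overlaps Slc29a1, and the strand setting of the counting is not given in the sources used here.

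Adora2b, the adenosine receptor, was the member that differed most between the irradiated groups. The control mice had 4.37, 2.21 and 2.25 FPKM, the TAI mice 1.55, 2.00 and 0.743, and the TAI/IVIg mice 3.10, 7.11 and 8.37. All TAI mice were below all control mice, and all TAI/IVIg mice were above all TAI mice, whereas TAI/IVIg and control overlapped. Read numbers behind these values were small, at most 60 in a TAI mouse and at least 103 in a TAI/IVIg mouse. The log2 difference of TAI/IVIg from TAI was 1.52 (95% confidence interval 0.72 to 2.31), the 3rd highest of all genes tested. It ranged from 1.28 without TAI/IVIg mouse 3 to 1.88 without TAI/IVIg mouse 1. No gene tested, Adora2b included, reached a limma adjusted p under 0.05 between these groups. The difference of TAI from control was -0.69 (standard error 0.35) and that of TAI/IVIg from control 0.83 (standard error 0.35).

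The remaining adenosine receptors were too low to be tested. Adora1 ran from 0.124 to 0.417 FPKM over the 9 mice and Adora3 from 0.0316 to 0.108, on at most 7 reads. Adora2a ran from 0.345 to 1.32 FPKM, with its highest value in control mouse 3. Adora2b was the receptor gene with the highest level in every mouse except TAI mouse 3, where Adora2a was at 0.806 FPKM. Of 10 genes tested around cAMP signalling, 1 rose and 1 fell in TAI against control, where 8.81% and 26.1% of all genes did so. Nr4a1, an immediate early transcription factor, rose and Prkaca, a catalytic subunit of protein kinase A, fell. Nr4a1 had 1.07, 1.21 and 2.83 FPKM in control, 3.68, 5.08 and 6.11 in TAI and 1.38, 1.86 and 0.544 in TAI/IVIg (log2 difference of TAI from control 1.18, limma adjusted p = 0.0177). Its TAI/IVIg mice all lay below its TAI mice, opposite to Adora2b, with a log2 difference of -1.42 that did not pass the threshold (limma adjusted p = 0.353). Prkaca differed from control by -0.33 in TAI (limma adjusted p = 0.0460), against a median of -0.23 over all genes tested. In TAI/IVIg against control 0 of the 10 changed, where 46.4% of all genes did. With library medians set equal 2 rose and 0 fell after TAI, so Prkaca lost its call. In that setting 1 rose and 0 fell in TAI/IVIg against control.

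Ada, which removes adenosine by deamination, became the most abundant member. The control mice had 52.6, 23.2 and 46.3 FPKM, the TAI mice 1444, 795 and 2233, and the TAI/IVIg mice 2148, 777 and 1279. The lowest irradiated mouse was far above the highest control, and the irradiated groups overlapped. The means of TAI and control differed 36.6-fold and the log2 difference was 5.12 (standard error 0.48), the 4th highest of all genes tested. TAI/IVIg differed from TAI by -0.09 (95% confidence interval -1.18 to 1.01), an interval that leaves room for a change of either sign. By contrast Adk, the enzyme that returns adenosine to AMP, was at 5.23, 7.55 and 5.93 FPKM in control, 3.48, 3.70 and 3.33 in TAI and 2.41, 3.29 and 2.69 in TAI/IVIg. The 3 groups of Adk did not overlap. Its log2 difference was -0.67 (standard error 0.15) between TAI and control and -0.25 (95% confidence interval -0.60 to 0.10) between TAI/IVIg and TAI. Scaling mattered here, since with library medians set equal these were -0.38 and -0.05, and with quantile normalization -0.39 and -0.02, so that almost none of the second difference remained. The level of Ada over that of Adk in the same mouse was 3.07 to 10.1 in control, 215 to 671 in TAI and 237 to 893 in TAI/IVIg.

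**Figure D2:**
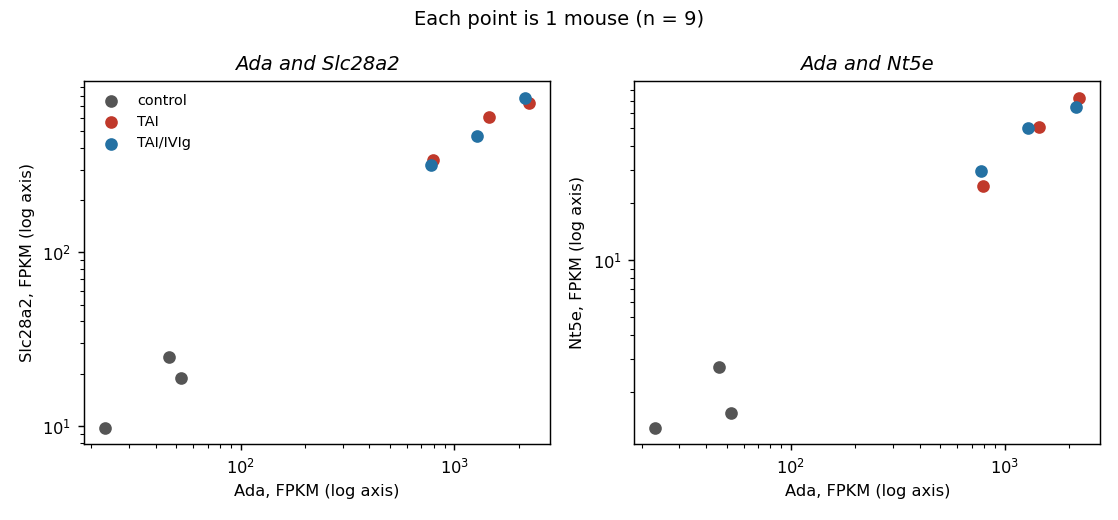
FPKM of Ada (horizontal log axis) against Slc28a2 and against Nt5e (vertical log axes) in each of the 9 mice, coloured by group. The control mice lie at the lower left and the irradiated mice at the upper right, and Ada stayed between 1.86 and 3.08 times Slc28a2.

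The proportions of Ada, Slc28a2 and Nt5e to each other varied far less than their levels. Ada over Slc28a2 ran from 1.86 to 3.08 over the 9 mice. Ada over Nt5e ran from 17.2 to 34.2 in the control mice and from 25.7 to 33.0 in the irradiated mice, although each gene differed over 20-fold between the groups. Within the TAI group mouse 3 was the highest and mouse 2 the lowest for all 3 genes, and within the TAI/IVIg group mouse 1 was the highest and mouse 2 the lowest. On the log2(FPKM + 1) scale, the genes with the highest Pearson correlation with Ada over the 9 mice were Slc28a2 (0.998), Bambi-ps1 (0.997), Slc23a4 (0.996), Ctdsp2 (0.993) and Nt5e (0.993). Slc23a4, of the nucleobase and ascorbate carrier family, ran from 5.88 to 12.1 FPKM in control, 138 to 201 in TAI and 98.6 to 270 in TAI/IVIg. The genes most like Adora2b were Igsf9 (0.954), Chuk (0.932), Gm34093 (0.925), Scamp5 (0.923) and Mterf2 (0.919). Igsf9 ran from 26.8 to 30.3 FPKM in control, 23.3 to 28.1 in TAI and 30.9 to 44.3 in TAI/IVIg, a much narrower span than Adora2b. These correlations describe 9 mice that fall into groups and share libraries with the gene compared, and no test was made.

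Farther down the pathway the differences were smaller. Pnp was at 17.3, 17.1 and 16.8 FPKM in the control mice, 29.9, 31.3 and 28.5 in the TAI mice and 31.8, 29.7 and 36.7 in the TAI/IVIg mice. The controls were tightly grouped and lay below every irradiated mouse, with a log2 difference of 0.77 (standard error 0.12) between TAI and control. Its neighbour Pnp2 overlaps it on the same strand of chromosome 14, so reads of this pair may be split uncertainly. Pnp2 was at 49.0, 53.1 and 41.3 FPKM in control, 82.9, 98.2 and 92.5 in TAI and 123, 117 and 160 in TAI/IVIg, a rise of 0.92 after TAI (standard error 0.16, limma adjusted p = 0.00384). The level of Pnp2 over Pnp in the same mouse was 2.46 to 3.10 in control, 2.77 to 3.25 in TAI and 3.87 to 4.36 in TAI/IVIg.

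Gda had 240, 135 and 130 FPKM in control, 373, 315 and 358 in TAI and 387, 443 and 426 in TAI/IVIg. Its 3 groups did not overlap, and control mouse 1 stood above the other controls. The log2 difference was 1.10 (standard error 0.23) between TAI and control and 0.27 (95% confidence interval -0.25 to 0.78) between TAI/IVIg and TAI. Xdh had 136, 110 and 98.4 FPKM in control, 178, 202 and 123 in TAI and 229, 129 and 109 in TAI/IVIg. For Xdh the groups overlapped, and its log2 difference between TAI and control was 0.52 (standard error 0.29). Abcg2, a urate exporter, was the only one of 3 tested genes of urate formation and export that changed after TAI, where 34.9% of all genes did so. It rose by 0.59 (standard error 0.13, limma adjusted p = 0.00874).

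**Figure D3:**
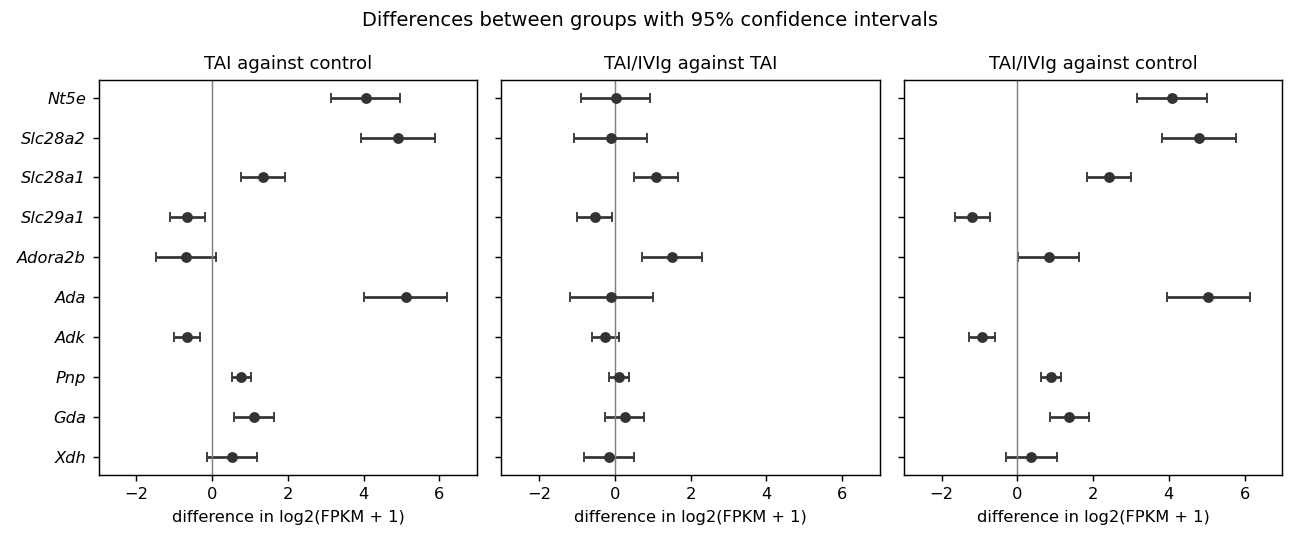
Difference in log2(FPKM + 1) of the 10 members in each of the 3 comparisons, with points for the estimates and bars for 95% confidence intervals from limma. After TAI, Ada, Slc28a2 and Nt5e lay above 4, and between TAI/IVIg and TAI the estimates farthest from 0 were those of Adora2b (1.52) and Slc28a1 (1.09). The intervals describe members chosen on these mice and are not a test.

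Counted over the whole table, 6 members were called higher and 2 lower in TAI against control at a limma adjusted p under 0.05. The same call was made for 34.9% of all genes, 8.81% in the higher and 26.1% in the lower direction, and since the members were chosen with such results known nothing is read from the difference. No overlap between TAI and control mice was seen in 6 members on the higher and 3 on the lower side, where 15.1% and 38.0% of all genes did so. The members' median log2 difference was 0.94, against -0.23 over all genes tested. Of the higher members, Slc28a1 reached the FPKM of 1 needed for testing only in irradiated mice, where it was high. Its entry to the test, here and in TAI/IVIg against control, thus came from those mice. The 2 lower members were Adk and Slc29a1. With the library medians set equal, which moves the all-gene median to 0.05, the calls over all genes were 2159 higher and 1823 lower, against 1150 and 3411, and both members lost their call while remaining lower. In TAI/IVIg against control 6 members were again called higher and 2 lower, against 9.06% and 37.4% of all genes (46.4% in all), and no others stood apart from the control mice, where 11.5% and 44.3% of all genes did so. The split over all genes was 1183 higher and 4880 lower, or 2880 and 1894 with medians set equal. These comparisons share their control mice. Between the irradiated groups 0 members were called, as were 0.0% of all genes, by limma and by limma voom. At an unadjusted p under 0.05 limma gave 214 genes higher and 1466 lower. The TAI/IVIg mice lay wholly above the TAI mice in 3 members (Adora2b, Slc28a1 and Gda) and wholly below them in 2 (Slc29a1 and Adk), where 3.09% and 16.1% of all genes did so.

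**Figure D4:**
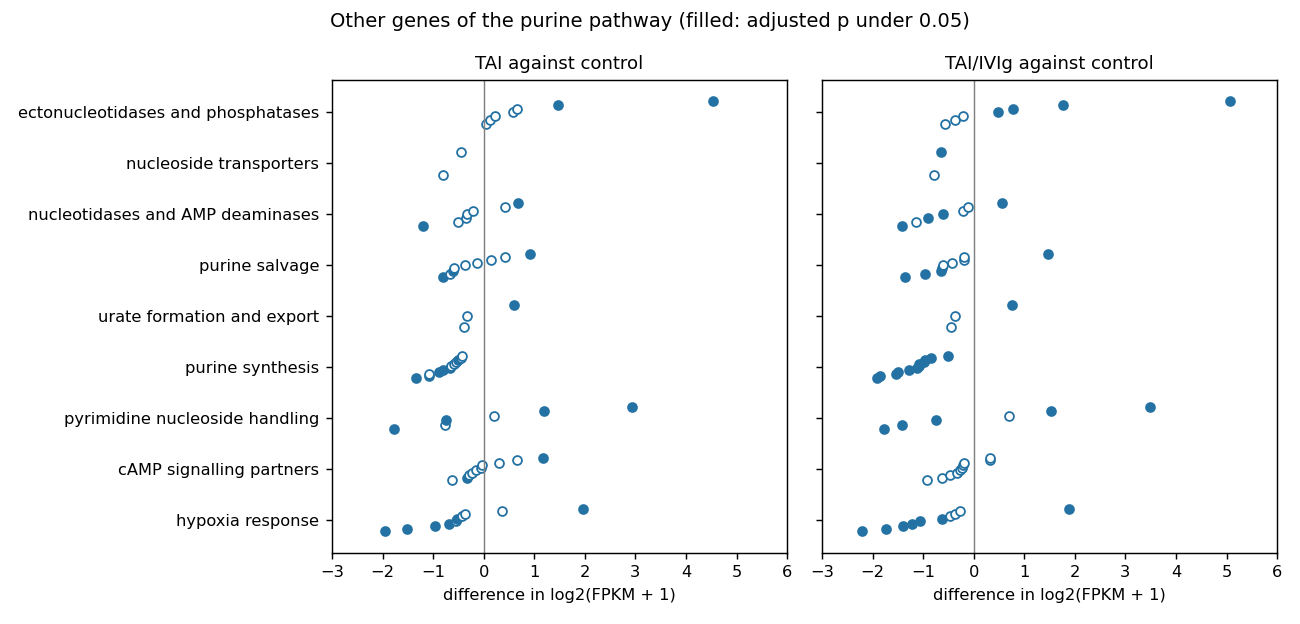
Difference in log2(FPKM + 1) for the other tested genes of the pathway (1 point a gene, filled where the limma adjusted p is under 0.05), by list, in TAI and in TAI/IVIg against control. The purine synthesis genes all lie below 0, and Enpp3 (4.53 after TAI) and Cda (2.94) are the points farthest to the right.

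Of 87 listed genes of the wider pathway other than the members, 66 were tested, of which 9 rose and 17 fell in TAI against control, where 8.81% and 26.1% of all genes did so. In TAI/IVIg against control 10 rose and 29 fell, where the shares of all genes were 9.06% and 37.4%. With library medians set equal the balance turned to 12 rising and 8 falling after TAI, and was 12 and 16 in TAI/IVIg against control, so no direction is given for the pathway as a whole. Their median log2 differences were -0.36 and -0.59, against -0.23 and -0.39 over all genes tested. Between the irradiated groups 0 of the 66 changed. Of 12 tested genes that build purines from small precursors, 6 fell and 0 rose in TAI against control, and all 12 fell in TAI/IVIg against control. With library medians set equal these counts of falls were 3 and 8. Adsl, which acts at a pair of steps of that route, had 3.29, 6.79 and 5.95 FPKM in control, 1.76, 2.26 and 1.74 in TAI and 1.06, 1.66 and 0.762 in TAI/IVIg, with a log2 difference of -1.08 after TAI (limma adjusted p = 0.0106). Gmps, which makes GMP, and Atic, which completes IMP, fell by 0.81 (limma adjusted p = 0.0151) and 1.33 (limma adjusted p = 0.0160) on the log2 scale.

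Of 9 salvage genes tested, 1 rose (Pnp2) and 2 fell after TAI, where 8.81% and 26.1% of all genes did so. With library medians set equal 1 rose and 0 fell. Hprt, which recycles hypoxanthine and guanine, fell by 0.60 (limma adjusted p = 0.0150) on the log2 scale, from 84.6 to 110 FPKM in control to 61.2 to 67.3 in TAI. Aprt, which recycles adenine, fell by 0.81 (limma adjusted p = 0.0227). The TAI/IVIg comparison with control held 4 salvage genes that fell, where 37.4% of all genes did so, or 1 with medians set equal. The 4 included Mtap, which frees adenine from methylthioadenosine (log2 difference -1.36, limma adjusted p = 0.01). Among 7 tested nucleotidases, AMP deaminases and related genes, Nt5c2 rose (0.67, limma adjusted p = 0.0310) and Ahcy, which frees adenosine from S-adenosylhomocysteine, fell (-1.2, limma adjusted p = 0.0249).

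Pyrimidine nucleosides are handled by separate enzymes, and these moved in both directions. Cda, which deaminates cytidine much as Ada deaminates adenosine, had 13.2, 16.6 and 8.43 FPKM in control, 101, 97.2 and 104 in TAI and 132, 146 and 165 in TAI/IVIg. Its 3 groups did not overlap, and the log2 difference of TAI from control was 2.94 (standard error 0.21, limma adjusted p = 0.000192). Dpyd, which breaks down uracil and thymine, rose by 1.2 (limma adjusted p = 0.00147), whereas Upp1, which splits uridine, fell from 381 to 612 FPKM in control to 85.3 to 179 in TAI (-1.78, limma adjusted p = 0.00742). Uck1, a uridine kinase, also fell (-0.74, limma adjusted p = 0.0136). Of 6 tested genes of this list, 2 rose and 2 fell after TAI, where 8.81% and 26.1% of all genes did so. With library medians set equal 2 rose and 1 fell.

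Nt5e and Adora2b are known as genes that low oxygen can raise, and a list of 10 other genes of the hypoxia response was read beside them. After TAI 1 of the 10 rose and 5 fell, where 8.81% and 26.1% of all genes did so. With library medians set equal 1 rose and 3 fell. Vegfa, the endothelial growth factor, rose by 1.97 on the log2 scale (limma adjusted p = 0.000729), from 17.1 to 25.9 FPKM in control to 76.8 to 107 in TAI. Pdk1, Ero1l and Egln3, which act in metabolism, protein folding and oxygen sensing, fell by 1.51 (limma adjusted p = 0.00156), 0.96 (limma adjusted p = 0.00269) and 0.52 (limma adjusted p = 0.00894). The counts were 1 and 6 in TAI/IVIg against control, where 9.06% and 37.4% of all genes rose and fell. With medians set equal they were 1 and 4.

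Markers of cell types moved with these genes, and their part in the differences was not tested. The summed level of 8 enterocyte markers was 10740 to 16989 FPKM in control, 19654 to 33369 in TAI and 28205 to 31161 in TAI/IVIg, with 4 of the 8 rising and 0 falling after TAI. This sum was mainly Fabp2, a fatty acid binding protein at 6932 to 11125 FPKM in control and 13342 to 26628 in TAI, and the markers diverged. Lct, Apob, Fabp1 and Fabp2 rose, with log2 differences of 4.13, 2.41, 1.53 and 1.11, whereas Anpep, Vil1 and Mttp differed by 0.31, -0.05 and -0.13, with overlap between mice. Sis, the sucrase-isomaltase gene, had 375, 510 and 257 FPKM in control and 189, 196 and 129 in TAI, with every TAI mouse lower (log2 difference -1.12, limma adjusted p = 0.0631). Of 9 tested villus tip markers 5 rose and 0 fell after TAI, where 8.81% and 26.1% of all genes did so. The others, Krt20, Junb, Neat1 and Ifrd1, differed by 0.72, 0.28, 0.08 and -0.03 and were not called. The sum of the tip markers was 2053 to 3109 FPKM in control, 5610 to 6262 in TAI and 6036 to 8015 in TAI/IVIg. It was mainly Apoa4 and Krt20, the latter at 1453 to 2213 FPKM in control and 2595 to 3167 in TAI. Apoa4, an apolipoprotein of the tip, rose by 2.91 on the log2 scale (limma adjusted p = 0.000283). Of 5 markers of the villus middle 1 rose. In contrast, 3 of 6 markers of the villus bottom (Il18, Nlrp6 and Lypd8) and 3 of 4 tested crypt markers fell and 0 of either list rose. Over all genes 8.81% rose and 26.1% fell. The remaining tested crypt marker, Smoc2, differed by -0.03. The crypt sum was 23.1 to 95.2 FPKM in control, 8.40 to 11.1 in TAI and 2.71 to 7.06 in TAI/IVIg, and Olfm4 alone ran from 8.39 to 61.4 FPKM in control.

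Although the tissue is labelled epithelial, all groups held markers of the wall. The smooth muscle sum was 447 to 581 FPKM in control, 494 to 708 in TAI and 104 to 510 in TAI/IVIg, and the fibroblast sum was 65.8 to 92.1, 73.7 to 94.2 and 21.1 to 47.9 FPKM. Both sums had their lowest values in TAI/IVIg mice, with overlap between groups for smooth muscle. By group mean, Adora2b and Slc28a1 were highest and Slc29a1 and Adk lowest in that group. For Adora2b the TAI/IVIg and control mice overlapped. Whether these members and the wall markers are related was not tested. Markers of T and B cells varied between mice of a group, from 7.38 to 265 FPKM in control, 4.99 to 53.3 in TAI and 4.08 to 57.4 in TAI/IVIg. Goblet markers summed to 1078 to 1509 FPKM in control, 1579 to 2092 in TAI and 692 to 1467 in TAI/IVIg, but they diverged. After TAI Muc2 and Fcgbp rose (log2 differences 0.86 and 1.32) and Agr2 fell (-1.74, limma adjusted p = 0.00353). Over all genes 8.81% rose and 26.1% fell. Tff3 and Clca1 differed by 0.64 and 0.20 and were not called. Sums were 48.1 to 118 FPKM for macrophages and neutrophils, 8.26 to 24.6 for endothelium and 1.20 to 2.88 for pancreas over all mice.

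Members were also set against the enterocyte markers of the same mouse. The mean of log2(FPKM + 1) of the 8 enterocyte markers was subtracted from that of each member. Ada, Slc28a2 and Nt5e were still 4.09, 3.88 and 3.03 higher in TAI than in control, with no overlap between mice. Gda, Pnp, Xdh and Slc28a1 differed by 0.08, -0.25, -0.50 and 0.32, with overlap between mice. Since the 8 markers diverged, these values depend on which markers are taken, and the log2 differences of Gda (1.10) and Pnp (0.77) were above those of Vil1, Mttp, Anpep and Sis, with Gda close to Fabp2 (1.11). For Slc28a1 the value also rests on the pseudocount, and with 0.1 in place of 1 its difference was 2.13. Adk, Slc29a1 and Adora2b were lower by these differences of -1.70, -1.68 and -1.72, with no overlap. Between TAI/IVIg and TAI, Adora2b was 1.15 and Slc28a1 0.72 higher relative to the enterocyte markers, with no overlap, and Ada differed by -0.45, with overlap.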

How the data were processed

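Sequencing was of jejunal mRNA from 9 mice, 3 per group, grouped and numbered from the sample labels. If same-group samples are not separate animals, p-values measure only technical spread. The authors deposited FPKM values. The submitters' processing notes name FastQC, Trimmomatic, STAR, featureCounts and DESeq2, without roles, and build GRCm38. Values were whole multiples of 1 read for 100% of the genes, and 96.7% gave whole reads (within 0.02 reads) with GENCODE M21 exon lengths. Totals were 16284386 to 18244739 reads. Symbols were paired for 31146 of 31685 genes, and 0 columns were left out.

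Log2(FPKM + 1) was fitted with limma 3.58.1 (R 4.3.3), a term per group, all 9 mice and a trended empirical Bayes step, for genes reaching an FPKM of 1 in 3 or more mice. P-values were adjusted by Benjamini-Hochberg within each comparison, with a threshold of 0.05, and the steps were tested on simulated data. The members and the gene lists were chosen with earlier results of these data known. List genes named are up to 3 in each direction with the smallest adjusted p, the other adenosine receptors, and the 5 genes most correlated with Ada and with Adora2b. Deviations from group means correlated at 0.271, 0.241 and 0.308 between same-numbered control and TAI mice. In the other pairs of groups the correlations ran from -0.296 to 0.201. Differently numbered mice were not compared, so no pairing is read from these values. The labels do not say what a shared number means. Alternatives were other pseudocounts, filters, scalings and samples, no trend, a replicate block, limma voom on recovered reads and each mouse left out.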

Additional observations from a re-analysis of the deposited data

How the results depend on the processing

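The number of genes called in TAI against control was 4561 and ran from 2350 (without TAI mouse 1) to 4912 when a mouse was left out, with 2828 without control mouse 2 and 2945 without control mouse 3. Between the irradiated groups it was 0, with 4 calls without the filter and 3 with the replicate block, where same-numbered mice correlated at only -0.067 to 0.201. In TAI/IVIg against control it was 6063, and 3381 with a mean FPKM of at least 5, where fewer genes were tested. The replicate block gave 4863 calls in TAI against control and changed no call of a member. Pathway genes called in TAI against control numbered 26, running from 13 (without control mouse 2) to 28 (without control mouse 1 or TAI/IVIg mouse 1) when a mouse was left out, with 14 without TAI mouse 1, and 25 in TAI/IVIg against control with a mean FPKM of at least 5, against 39.

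Calls of members are counts only, since the members were chosen on these mice. Slc29a1 in TAI against control lost its call in 8 of 17 alternatives, among them the pseudocount of 0.1, both scalings and the fits without control mouse 2, control mouse 3, TAI mouse 1 or TAI mouse 2. Adk in the same comparison lost it when medians were equalised or quantiles normalised. Adora2b in TAI/IVIg against control was on the other side of the threshold with both scalings and without control mouse 1 or TAI/IVIg mouse 1.

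Relative to the enterocyte markers, a pseudocount of 0.1 gave Slc28a1 2.13 for TAI against control, 1.01 for TAI/IVIg against TAI and 3.14 for TAI/IVIg against control. It gave Slc29a1 -3.09 for TAI/IVIg against control and Adora2b 1.66 for TAI/IVIg against TAI. Quantile normalization gave 0.08 for Pnp and -1.35 for Adk in TAI against control. It gave 1.03 for Slc28a1 and -0.31 for Adk between the irradiated groups. For TAI/IVIg against control it gave -0.04 for Pnp, 1.4 for Slc28a1, -1.94 for Slc29a1, 0.0 for Adora2b, -1.66 for Adk and 0.25 for Gda. The cause of these shifts was not tested. Depth limits Slc28a1 in control (2 to 22 reads) and Adora2b in TAI (25 to 60 reads).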

Other observations

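Slc28a2 has neighbours on chromosome 2 whose values lay close to its own pattern. They were looked at after the values were seen. Bambi-ps1, a processed pseudogene 5797 bases from Slc28a2 on the opposite strand, had 10.1, 7.17 and 11.7 FPKM in control, 73.7, 58.5 and 105 in TAI and 109, 54.3 and 84.5 in TAI/IVIg. Gm14085, a protein-coding gene 23803 bases from Slc28a2 on the same strand, had 0.0921, 0.0340 and 1.01 FPKM in control, 3.76, 1.86 and 6.30 in TAI and 8.30, 1.73 and 3.06 in TAI/IVIg. In both genes every irradiated mouse was above every control mouse, and the irradiated groups overlapped. In the TAI mice both had mouse 3 highest and mouse 2 lowest, the order of Slc28a2. Whether reads of Slc28a2 were assigned to these genes was not tested.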
